A study of Homo sapiens with 18 samples.

Results

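Open chromatin was examined at the clustered histone genes, the genes for histones H1, H2A, H2B, H3 and H4 that stand together on chromosomes 1, 6 and 12. A peak was counted as theirs when its centre lay inside such a gene, or when such a gene was the nearest protein-coding gene within 50 kb. This gave 102 of 71318 peaks, in or near 44 of the 70 clustered histone genes in the RefSeq table on GRCh38. Accessible DNA was tagged by transposase and sequenced (Omni-ATAC-seq) in Raji, a human line of B cells established from Burkitt lymphoma. Cells of high or low GFP level were taken at 24, 48 and 72 h, with 3 labelled replicates for each combination. All samples carry the genotype Smarca4+/+ in the labels, in a series that concerns auxin-induced loss of SMARCA4, the motor subunit of BAF, which slides nucleosomes. What GFP reports, which GFP level has less SMARCA4, and whether the cells are 1 clone cannot be read from the labels, so the groups are called GFP high and GFP low.

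The deposited table held 18 columns of whole-number counts over peaks of 501 bp, and within each group the spread between the 3 columns was a constant multiple of counting noise. They were therefore summed, which left 6 libraries, 1 per combination, of 22908652 to 29790483 counts. Nothing states that libraries came from separate cultures, so p-values measure the spread of the GFP contrast between times, which may be technical. Of 7 B-cell marker genes, MS4A1, CD79A, CD79B, CD22 and PAX5 had a peak at a gene end, at 79.0, 19.3, 26.8, 14.5 and 26.9 CPM (counts scaled to a common library size) in the strongest. Of the T-cell markers CD3E stood at 38.1 CPM and the others with a gene-end peak at 2.65 to 10.7, the strongest of the myeloid marker ITGAM at 5.64, and those of the stromal markers COL1A1 and COL1A2 at 9.24 and 12.4. No gene-end peak in the table fell to the other 5 myeloid markers or to EPCAM, KRT8, KRT18 and CDH1.

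Replication-dependent histone genes are transcribed mostly in S phase, when new DNA has to be packed into nucleosomes. H2A, H2B, H3 and H4 form the core of the nucleosome, and H1 binds the linker DNA between nucleosomes. The genes are short, lack introns in their usual transcripts, and end in a stem-loop that takes the place of a poly(A) tail. They are transcribed in nuclear histone locus bodies around the coactivator NPAT, and each family has its own promoter elements. H2B promoters carry an octamer bound by OCT factors, H4 promoters a site bound by HINFP, and H1 promoters an AAACACA element. Many H2A and H2B genes are paired head to head, so that one short stretch of DNA serves as promoter for both.

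Promoters of 6 genes are printed to show these elements at loci that the results turn on. Each is the 250 bases before the annotated start, 5′ to 3′ on the gene's strand, from RefSeq on GRCh38.p14. Capitals mark matches on either strand to 5 motifs. The TATA box was searched as TATAAA. The site of the factor NF-Y was searched as CCAAT. The octamer was searched as ATTTGCAT. For the core of the HINFP site the letters were GGTCCG. For the H1 element they were AAACACA. A match on the other strand appears as the reverse complement of these letters. H2BC11 (chr6:27132796-27133045, minus strand) and H2BC4 (chr6:26123927-26124176, minus strand) each share their window with an H2A gene on the other strand. H1-4 lies at chr6:26156079-26156328 (plus strand), H3C1 at chr6:26020201-26020450 (plus strand) and H4C8 at chr6:26285535-26285784 (minus strand). H4C16 lies at chr12:14771132-14771381 (minus strand), away from the large clusters.
H2BC11: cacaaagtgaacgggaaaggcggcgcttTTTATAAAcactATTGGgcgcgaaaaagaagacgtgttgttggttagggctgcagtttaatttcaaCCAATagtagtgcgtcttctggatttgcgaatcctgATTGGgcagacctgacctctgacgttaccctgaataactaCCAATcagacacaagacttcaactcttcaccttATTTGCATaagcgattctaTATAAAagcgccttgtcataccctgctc
H2BC4: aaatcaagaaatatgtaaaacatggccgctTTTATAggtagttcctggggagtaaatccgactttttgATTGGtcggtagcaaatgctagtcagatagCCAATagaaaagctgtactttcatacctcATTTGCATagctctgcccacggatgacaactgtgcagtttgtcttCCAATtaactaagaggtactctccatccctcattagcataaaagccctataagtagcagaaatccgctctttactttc
H1-4: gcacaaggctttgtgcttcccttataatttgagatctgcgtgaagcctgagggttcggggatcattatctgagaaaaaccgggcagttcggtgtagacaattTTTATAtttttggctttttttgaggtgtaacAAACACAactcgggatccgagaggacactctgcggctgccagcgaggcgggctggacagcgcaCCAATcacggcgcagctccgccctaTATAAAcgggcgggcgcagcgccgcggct
H3C1: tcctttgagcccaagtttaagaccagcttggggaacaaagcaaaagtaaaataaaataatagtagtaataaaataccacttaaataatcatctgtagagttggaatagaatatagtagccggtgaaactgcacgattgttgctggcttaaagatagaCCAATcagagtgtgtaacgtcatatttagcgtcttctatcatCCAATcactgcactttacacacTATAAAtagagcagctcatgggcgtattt
H4C8: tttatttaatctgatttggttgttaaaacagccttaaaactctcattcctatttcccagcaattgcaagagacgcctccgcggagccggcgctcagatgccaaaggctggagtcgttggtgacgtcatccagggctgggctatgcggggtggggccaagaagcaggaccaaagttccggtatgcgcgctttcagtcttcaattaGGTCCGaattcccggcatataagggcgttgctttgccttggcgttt
H4C16: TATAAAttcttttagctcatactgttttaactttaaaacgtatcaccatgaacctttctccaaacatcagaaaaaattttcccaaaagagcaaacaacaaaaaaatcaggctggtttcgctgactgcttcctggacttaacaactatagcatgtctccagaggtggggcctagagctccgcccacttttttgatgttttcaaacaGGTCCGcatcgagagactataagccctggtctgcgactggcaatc

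In H2BC11 the octamer begins 47 bases before the start and a TATA box 28 bases before it, with 4 CCAAT boxes further out. H1-4 holds an AAACACA element 117 bases before the start, a CCAAT box at 54 and a TATA box at 29 bases before it. The HINFP core begins 46 bases before the start in H4C8 and 45 before it in H4C16, on another chromosome.

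Promoter windows of 300 bases (250 before to 50 after the start) were found for 65 of the 70 genes and compared with those of 15843 protein-coding genes. TATAAA was in 64.6% of histone windows and 9.63% of all windows, and CCAAT in 84.6% and 36.4%. Every H1, H2A, H2B and H3 window held a CCAAT box, as did 3 of 13 H4 windows. The octamer was in 14 of 18 H2B and 11 of 16 H2A windows, in 1 H3 window, and in 1.7% of all windows. That H3 window belongs to H3C4 and is the same stretch as the window of H2AC7. GGTCCG was in 12 of 13 H4 windows and 14.5% of all windows, and AAACACA in 7 of 7 H1 windows and 4.24% of all windows. TTTGGCGC, an E2F site, was in 0 histone windows and 0.89% of all windows. Where an H2A and an H2B gene are paired, their windows overlap and a match in the overlap counts for both. These matches describe the letters of the windows and are not evidence that a factor was bound.

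Peaks were not spread evenly over the genes. By family, a peak was assigned to 4 of 7 H1 genes, 8 of 17 H2A, 12 of 18 H2B, 9 of 13 H3 and 11 of 15 H4 genes. Of the 26 genes with no peak of their own, 6 had their start inside the peak of a neighbouring histone gene, and 20 had neither. Those 20 include the germ-line histone genes H1-6, H1-7, H2AC1 and H2BC1, the pair H2AC25 and H2BC26, and H1-1, H2BC3, H2BC6, H3C3, H4C6 and H4C7 of the first chromosome 6 group. They also include most genes of the chromosome 1 cluster, among them H2BC18, H3C13, H4C14, H3C14, H2AC18, H2AC19 and H3C15. That cluster contains near-identical copies: the windows of H4C14 and H4C15 are 100% the same without gaps, and those of H4C11 and H4C12 on chromosome 6 98.3%. How reads matching several places were treated is not given in the sources used here, so low or absent values at such copies are uncertain. In the peak nearest to them, assigned to H4C15 (chr1:149843438-149843938), GFP high held 3.48, 3.22 and 3.13 CPM and GFP low 3.99, 2.49 and 3.74 at 24, 48 and 72 h. The difference of 0.032 ± 0.20 on the log2 scale did not pass (edgeR adjusted p = 0.909).

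The H4 genes differed from the other families in where the peak sat. Of 65 known starts, 36 lay inside a peak: 4 of 7 in H1, 10 of 16 in H2A, 13 of 18 in H2B, 7 of 11 in H3 and 2 of 13 in H4. Taking the strongest gene-end peak of each gene, the centre lay a median of 321 bases after the start in H4, and after it in 9 of 9 genes. In H2B, H3, H2A and H1 the median centre was at -82, -56, -11 and 81 bases relative to the start. A peak counted only for the gene it was assigned to. H4C15 entered with a peak 17471 bases after its start. H2BC11 and H2BC12 entered at 797 and 790 bases, though peaks assigned to H2AC11 and H2AC12 covered their starts. H4C9, whose start lay in a peak of H2BC12, was left out. For 5 H4 genes the start lay just outside a peak, by 43 bases in H4C8, 53 in H4C2, 71 in both H4C16 and H4C13, and 98 in H4C4. H4C8 had a peak on each side of its start, centred 293 bases after and 355 bases before it. The 250-base windows printed for H4C8 and H4C16 therefore lie next to these peaks, or overlap them in part, and those for H2BC11, H2BC4, H1-4 and H3C1 have a peak over the start.

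**Figure D1:**
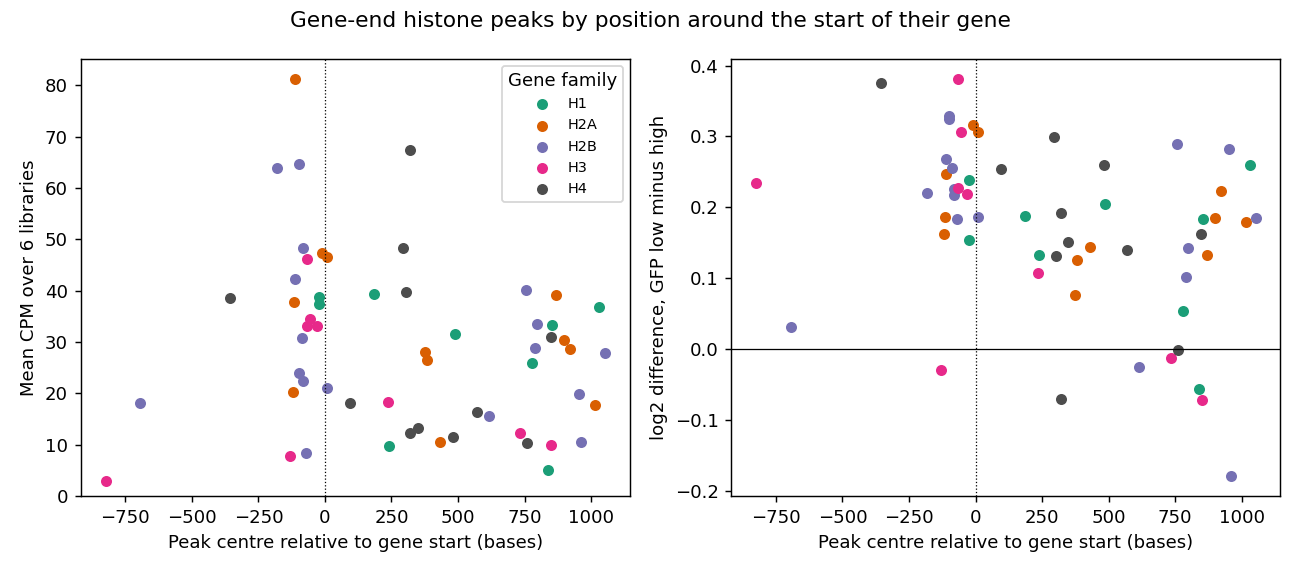
Gene-end histone peaks with their centre within 1200 bases of the start of their gene, coloured by family. The x axes give the centre relative to the start in bases, the left y axis the mean CPM over 6 libraries and the right y axis the fitted log2 difference, GFP low minus high. H4 points lie mostly after the start, while the other families have points on both sides of it.

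All peaks are 501 bp wide, so their CPM do not differ through width, though low values at near-identical copies stay uncertain. Mean CPM over the 6 libraries ran from 3.00 to 81.2 among the histone peaks, with a median of 20.03, against 7.59 over all peaks and 23.5 over the 13716 gene-end peaks, those no more than 1 kb from either end of a protein-coding gene. Of the 102 histone peaks, 27 covered a histone start, 38 were other gene-end peaks, 5 lay at a gene end whose start was not in the promoter table and 32 lay over 1 kb from a gene end. Their median CPM was 34.4, 27.2, 40.5 and 9.91 in that order. Summed over all 102 peaks, GFP high held 2215, 2446 and 2244 CPM at 24, 48 and 72 h, and GFP low 2778, 2546 and 2581. The GFP low sums were the higher at each time and did not overlap those of GFP high, but at 48 h they lay close together.

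The first comparison asked which histone peaks differed between GFP low and GFP high over the 3 times. In GFP low 26 of the 102 peaks were higher and 0 lower, at a Benjamini-Hochberg adjusted p under 0.05 by the quasi-likelihood test of edgeR, fitted with time as a term. That is 25.5% of the histone peaks, against 13.4% of all peaks called higher and 25.4% called lower. At an unadjusted p under 0.05, 38 of the 102 differed, beside 34521 of all 71318 peaks and 6838 of the 13716 gene-end peaks. DESeq2 called 12 histone peaks higher and 0 lower. It called 3721 of all peaks (5.22%) and 2348 of gene-end peaks (17.1%) higher, and 12810 and 357 lower. The fitted log2 difference was above 0 in 87 histone peaks and below 0 in 15, with a median of 0.18 and a range from -0.33 to 0.58. The median over all peaks was 0.031 and over gene-end peaks 0.18, so the histone median lay at that of gene ends in general. Of the 13716 gene-end peaks, 34.4% were called higher and 4.24% lower, and 11236 had a difference above 0. In 41 histone peaks all 3 GFP low libraries lay above all 3 GFP high libraries, and in 2 below, where 20.8% and 25.1% of all peaks and 43.1% and 5.05% of gene-end peaks did so. By family, 3 of 11 H1 peaks, 4 of 20 H2A, 8 of 35 H2B, 4 of 14 H3 and 7 of 22 H4 peaks were higher. Bulk libraries do not separate a change in the share of cells with an open site from a change in how open it is in each cell.

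The count depends on the scaling and on the times used. With scaling factors taken from gene-end peaks alone, 1 histone peak remained higher and 3 were lower, and the histone median became 0.012. That scaling moved the median of all peaks from 0.031 to -0.14, and the histone differences were then above 0 in 55 peaks and below 0 in 47. Without the 72 h pair of libraries 5 of the 26 calls remained, without the 24 h pair 17, and with loess scaling 6. The share of all gene-end peaks called higher fell from 34.4% as well. It was 7.14% without the 72 h pair, 30.3% without the 24 h pair, 10.5% with loess and 0.984% with gene-end scaling. With gene-end scaling 32.5% of all peaks and 7.71% of gene-end peaks were lower. The 6 calls kept with loess scaling were at H3C1, the H4C8 peaks before its start and 37.2 kb outside it, and the called peaks over 1 kb outside H1-2, H2BC13 and H4C11. The 5 kept without the 72 h pair were these last H4C8, H1-2 and H4C11 peaks and the start peaks of H2BC4 and H2AC15. With gene-end scaling the peak 37.2 kb outside H4C8 kept its call, and every other histone call of the 26 was lost.

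**Figure D2:**
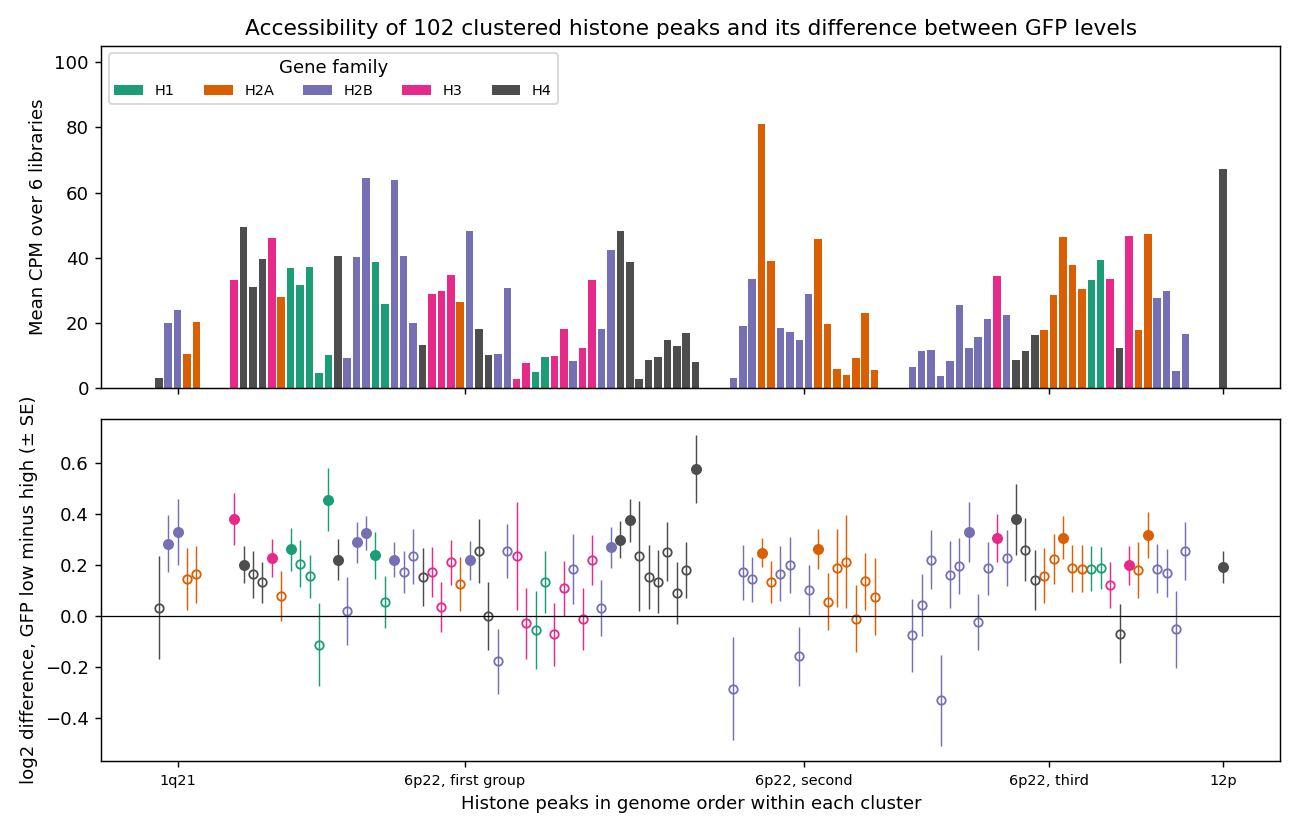
The 102 histone peaks in genome order within each cluster, coloured by gene family. The upper panel gives mean CPM over 6 libraries, and the lower panel the fitted log2 difference, GFP low minus high, with its SE. Filled points are the 26 peaks called higher; 15 points lie below 0 and none of them was called.

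The calls were uneven by position and abundance. Peaks over a histone start were called higher in 13 of 27 cases (48.1%), with a median log2 difference of 0.23. Other gene-end peaks were called in 6 of 38 cases (15.8%, median 0.15), and peaks whose start was not in the table in 3 of 5. The start count fell to 7 with DESeq2, 1 with loess and 0 with gene-end scaling, and to 2 without the 72 h pair. Together 22 of 70 gene-end histone peaks were higher (31.4%), beside 34.4% of all gene-end peaks. Among peaks in the top decile of abundance, which begins at 33.0 CPM, 20 of 31 gene-end histone peaks were higher (64.5%), beside 70.6% of all gene-end peaks in that decile. In the next decile it was 2 of 17 (11.8%) beside 27.3%, and in decile 8 it was 0 of 9 beside 11.7%, with 0 of 9 also at an unadjusted p under 0.05. In these 3 deciles the share called was below that of all gene-end peaks in the same decile, and this difference was not tested. Abundance was not alike within the top decile, where the median was 40.2 CPM in the histone peaks and 51.8 CPM in all gene-end peaks. The median log2 difference there was 0.22 in both. It was 0.19 beside 0.20 in the next decile and 0.15 beside 0.14 in decile 8.

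Many of the starts lie in head-to-head pairs. Among the 65 known starts there were 13 pairs of divergent histone starts within 1 kb of each other, 11 of them of an H2A and an H2B gene. The starts lay 194 to 979 bases apart, with a median of 236. Of the 13 pairs, 11 had a peak over a start, and in 7 pairs that peak was higher in GFP low. H3C4 and H2AC7 share an annotated start opposite H2BC7, and so count as 2 of these pairs with 1 peak. Peaks over 2 or more starts had a median of 47.0 CPM and a median log2 difference of 0.28, with 6 of 8 higher. Peaks over 1 start had 33.2 CPM and 0.19, with 7 of 19 higher, and the difference between the kinds was not tested. Beside these, 34.4% of all gene-end peaks were higher, and 70.6% of those in the top decile of abundance, which begins at 33.0 CPM.

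The peak between H2BC11 and H2AC11 (chr6:27132681-27133181), over the promoter printed first, was the strongest of all histone peaks at 81.2 CPM. GFP high held 72.8, 77.9 and 71.99 CPM at 24, 48 and 72 h, and GFP low 89.2, 90.2 and 84.96. Every GFP low library was above every GFP high library, and the log2 difference was 0.25 ± 0.06 (SE, edgeR adjusted p = 0.00156). With loess scaling it came to 0.038 and lost its call (adjusted p = 0.585). The peak between H2BC4 and H2AC6 (chr6:26123774-26124274) had the smallest p-value of the set. It went from 54.9, 62.2 and 55.0 CPM in GFP high to 77.5, 70.5 and 67.7 in GFP low, again without overlap (0.32 ± 0.07, edgeR adjusted p = 0.000653). With loess scaling it came to 0.14 (adjusted p = 0.0862). A second peak of H2BC4 (chr6:26122920-26123420), centred 756 bases after the start, held 34.5, 37.3 and 36.9 CPM against 44.3, 43.4 and 45.03. It too was higher without overlap (0.29 ± 0.08, edgeR adjusted p = 0.00651).

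The shared peak of H2AC15 and H2BC15 (chr6:27838116-27838616) held 38.9, 45.4 and 40.3 CPM in GFP high and 57.9, 48.2 and 48.5 in GFP low. The groups did not overlap, and the difference was largest at 24 h (0.31 ± 0.08 over times, edgeR adjusted p = 0.00619). At H2AC17 and H2BC17 (chr6:27892946-27893446) GFP high held 39.2, 48.1 and 39.4 CPM and GFP low 57.7, 46.6 and 53.5. Here the groups overlapped, since at 48 h GFP low was the lower, but the peak was called (0.32 ± 0.09, edgeR adjusted p = 0.00816). The peak shared by H3C4, H2AC7 and H2BC7 (chr6:26199184-26199684) went from 42.0, 47.0 and 44.8 to 54.7, 50.2 and 50.8 CPM. It was higher by 0.22 ± 0.08 without overlap (edgeR adjusted p = 0.0275).

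H2B promoters not counted in the 13 pairs also appear among the higher peaks. One of them, H2BC12, lies next to H2AC12, whose start and strand were not in the promoter table, so a pair of these genes could not be counted. The H2BC5 start (chr6:26157690-26158190) held 57.3, 60.9 and 58.7 CPM in GFP high and 75.8, 63.3 and 67.6 in GFP low (0.22 ± 0.07, edgeR adjusted p = 0.0147), and the difference came to 0.036 with loess scaling. The H2BC10 start (chr6:26272570-26273070) held 37.5, 40.03 and 37.4 against 51.0, 44.0 and 43.8 CPM (0.27 ± 0.08, edgeR adjusted p = 0.0121). Neither overlapped. The peak over the start of H2BC12, whose nearest gene is H2AC12 (chr6:27146781-27147281), held 40.3, 46.0 and 38.6 against 50.3, 48.1 and 51.1 CPM (0.26 ± 0.08, edgeR adjusted p = 0.0125), also without overlap.

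On chromosome 1 the H2BC21 and H2AC20 pair shares a peak (chr1:149886530-149887030) whose contrast changed among the most between 24 and 72 h. GFP high held 16.7, 25.1 and 21.97 CPM and GFP low 30.9, 25.03 and 24.0. The groups differed at 24 h and overlapped at 48 h, and the call was narrow (0.33 ± 0.13, edgeR adjusted p = 0.0466). A peak after it in H2BC21 (chr1:149885479-149885979) held 16, 18 and 20.05 against 23.2, 20.3 and 22.1 CPM, without overlap (0.28 ± 0.11, edgeR adjusted p = 0.0483). Each of these calls held in 17 of 31 alternatives. The neighbouring H2AC21 had peaks of 10.5 and 20.4 mean CPM, and neither passed. Over its start (chr1:149887835-149888335) GFP high held 18.1, 20.8 and 18.6 CPM and GFP low 20.8, 19.8 and 24.0 (0.16 ± 0.11, edgeR adjusted p = 0.248), with overlap. Inside it (chr1:149887284-149887784) the values were 9.03, 9.76 and 11.2 against 11.7, 9.85 and 11.6 CPM (0.14 ± 0.12, edgeR adjusted p = 0.358).

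Of the H3 genes, which code for a core histone whose tail carries many of the studied marks, H3C1 had the largest gene-end difference in the whole set. Its start peak (chr6:26020135-26020635) held 27.6, 32.1 and 26.8 CPM in GFP high and 40.7, 32.6 and 39.5 in GFP low. The groups did not overlap, yet at 48 h they nearly met (0.38 ± 0.10, edgeR adjusted p = 0.00494). The call was kept in 29 of 31 alternatives and lost without the 72 h pair (adjusted p = 0.155) and with gene-end scaling (0.0919). H3C10 (chr6:27809745-27810245) followed the same order of libraries, with 29.7, 34.7 and 28.0 against 41.4, 36.0 and 36.7 CPM (0.31 ± 0.09, edgeR adjusted p = 0.0124). H3C2 (chr6:26031915-26032415) held 40.9, 43.5 and 43.1 against 51.6, 47.4 and 50.5 CPM (0.23 ± 0.08, edgeR adjusted p = 0.0212). Both were without overlap.

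The strongest H3 peak belonged to H3C12 (chr6:27890476-27890976), whose start was not in the promoter table. It held 41.1, 46.3 and 42.9 CPM in GFP high and 51.1, 49.8 and 48.5 in GFP low, without overlap (0.20 ± 0.08, edgeR adjusted p = 0.0411). A peak of H3C4 (chr6:26197107-26197607) inside its long annotated span held 30.5, 33.3 and 32.7 against 39.5, 34.8 and 37.5 CPM. It did not overlap either, but it did not pass (0.21 ± 0.09, edgeR adjusted p = 0.0654).

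Of the H4 genes, which code for the partner of H3 in the nucleosome core, H4C8 had 3 of the 7 higher peaks. After its start (chr6:26284991-26285491) GFP high held 44.8, 41.4 and 43.6 CPM and GFP low 56.8, 51.0 and 52.0 (0.30 ± 0.07, edgeR adjusted p = 0.00243). Before its start (chr6:26285639-26286139), in a stretch that overlaps the printed promoter, the values were 33.5, 34.0 and 33.3 against 46.8, 39.8 and 44.5 CPM (0.38 ± 0.08, edgeR adjusted p = 0.0012). Neither peak overlapped between GFP levels, and both differed in the same direction at every time. The peak before the start kept its call with loess scaling, at 0.25, and missed it with gene-end scaling (0.20, adjusted p = 0.0556) and without the 72 h pair (adjusted p = 0.054).

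The solitary H4C16 on chromosome 12 (chr12:14770560-14771060) held 62.1, 66.5 and 60.1 CPM in GFP high and 73.4, 70.5 and 71.6 in GFP low. It was the strongest H4 peak, and the difference of 0.19 ± 0.06 was called without overlap (edgeR adjusted p = 0.0194), but came to 0.0019 with loess scaling. H4C1 (chr6:26021264-26021764) held 47.0, 47.5 and 43.3 against 55.0, 51.6 and 51.8 CPM (0.20 ± 0.07, edgeR adjusted p = 0.0319). H4C3 (chr6:26103928-26104428) held 36.0, 39.5 and 36.8 against 45.1, 43.2 and 42.5 CPM (0.22 ± 0.08, edgeR adjusted p = 0.0343). Neither overlapped between GFP levels.

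H4C5 was the H4 gene with a start inside its own peak (chr6:26204454-26204954), at 14.4, 17.1 and 18.2 CPM in GFP high and 23.6, 17.7 and 18.2 in GFP low. Only the 24 h libraries stood apart, and the difference did not pass (0.25 ± 0.13, edgeR adjusted p = 0.113). A gene-end peak of H4C11 (chr6:27824325-27824825) also did not pass (0.26 ± 0.12, edgeR adjusted p = 0.0954), with 10.2, 12.6 and 8.596 against 14.0, 12.7 and 10.7 CPM. Those groups overlapped.

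The linker histone genes with peaks were H1-2, H1-3, H1-4 and H1-5. The H1-4 start (chr6:26156056-26156556), over the printed promoter, held 32.0, 40.7 and 34.1 CPM in GFP high and 45.02, 39.6 and 41.2 in GFP low. The GFP levels overlapped at 48 h and the call was narrow (0.24 ± 0.09, edgeR adjusted p = 0.0436), held in 19 of 31 alternatives. At H1-2 the peak over the start (chr6:26056244-26056744) held 35.6, 36.1 and 34.3 against 41.7, 37.6 and 38.8 CPM and did not pass (0.15 ± 0.08, edgeR adjusted p = 0.143), though the groups did not overlap. A peak past the end of H1-2 (chr6:26055189-26055689) was called, at 31.2, 35.3 and 34.3 against 41.5, 39.6 and 39.5 CPM (0.26 ± 0.09, edgeR adjusted p = 0.0192), without overlap. The H1-5 start (chr6:27867153-27867653) held 36.2, 39.9 and 34.1 against 44.6, 42.7 and 38.3 CPM (0.19 ± 0.08, edgeR adjusted p = 0.071). It overlapped and did not pass.

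**Figure D3:**
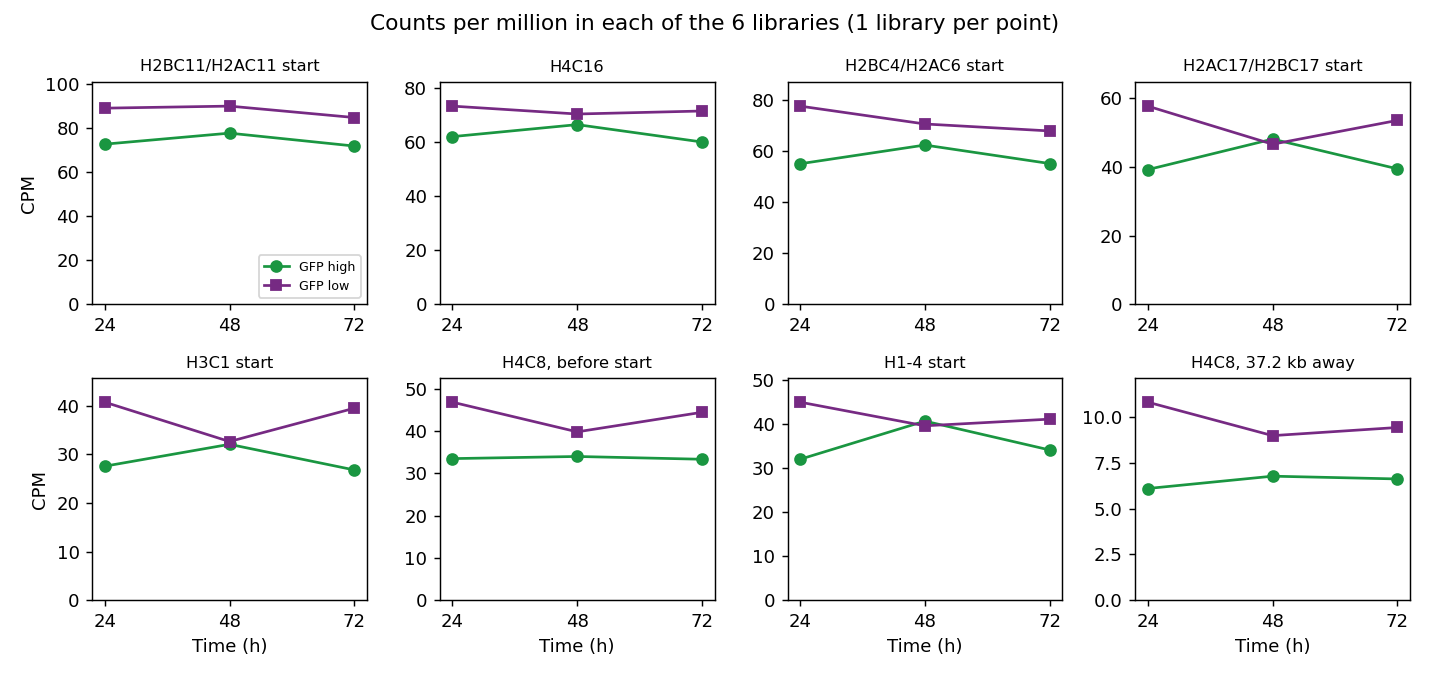
CPM of 8 histone peaks in each of the 6 libraries, against time in hours, with 1 library per point and no error bars. At H2BC11/H2AC11, H4C16, H2BC4/H2AC6 and both H4C8 peaks GFP low is above GFP high at every time, while at H2AC17/H2BC17, H3C1 and H1-4 the levels meet or cross at 48 h.

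Away from gene ends, no histone peak was called lower. Of the 32 histone peaks over 1 kb from a gene end, all on chromosome 6, 4 were higher (12.5%) and 0 lower, and 25 differences were above 0. At an unadjusted p under 0.05 0 of them were lower, and DESeq2 called 0 lower. Of all 57602 peaks over 1 kb from a gene end, 8.43% were higher and 30.5% lower, and of the 4323 such peaks on chromosome 6 9.55% and 32.7%. The difference was above 0 in 26403 of the 57602 and in 1924 of the 4323. The share called lower hardly varied with abundance in that background, from 28.7 to 33.3% in deciles 1 to 9, which hold all 32 histone peaks. The median log2 difference was 0.16 in the histone peaks, -0.051 in all peaks over 1 kb away and -0.067 in those of chromosome 6. This difference was not tested, since neighbouring peaks are not independent.

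The largest rise of any histone peak was 37.2 kb outside H4C8 (chr6:26322528-26323028). GFP high held 6.11, 6.78 and 6.63 CPM there and GFP low 10.8, 8.995 and 9.44. The groups did not overlap, and the log2 difference of 0.58 ± 0.13 (edgeR adjusted p = 0.00161) was called in 31 of 31 alternatives, from 0.41 to 0.67. A peak 9.6 kb outside H1-2 (chr6:26065827-26066327) held 8.51, 8.07 and 9.36 against 13.6, 10.8 and 11.4 CPM (0.46 ± 0.12, edgeR adjusted p = 0.00578). It did not overlap, and it kept its call in 30 of 31 alternatives, losing it with gene-end scaling (0.28, adjusted p = 0.104).

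The other called peaks of this kind were weaker calls. A peak 4.2 kb outside H4C11 (chr6:27819612-27820112) held 6.28, 7.86 and 8.44 against 10.9, 9.74 and 8.76 CPM (0.38 ± 0.14, edgeR adjusted p = 0.0355), called in 22 of 31 alternatives. A peak 11.5 kb outside H2BC13 (chr6:27795703-27796203) held 10.7, 11.4 and 10.4 against 14.9, 13.1 and 13.0 CPM (0.33 ± 0.12, edgeR adjusted p = 0.0289), called in 24 of 31. Neither overlapped between GFP levels. The histone gene is only the nearest gene here, and nothing in these data ties such a peak to that gene.

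The lowest difference was that of a peak 30.2 kb outside H2BC13 (chr6:27777012-27777512). It held 4.90, 4.0 and 4.30 CPM in GFP high and 3.66, 2.92 and 3.94 in GFP low. The groups did not overlap, but the difference did not pass (-0.33 ± 0.18, edgeR adjusted p = 0.142). With gene-end scaling it was called lower (-0.50), as were peaks of H2BC12 (-0.33) and H2BC8 (-0.35).

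**Figure D4:**
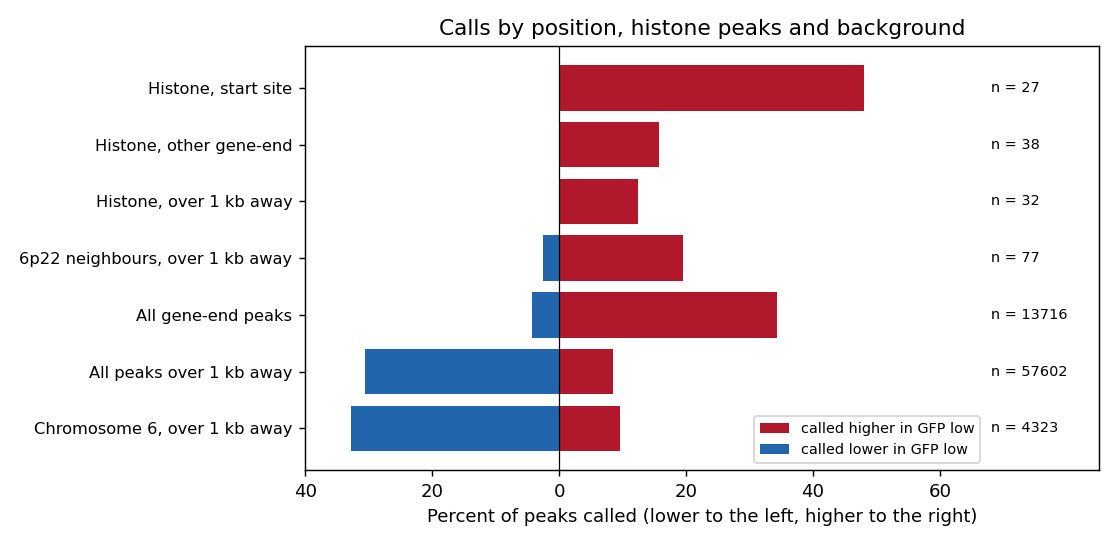
Percent of peaks called higher (right of 0) and lower (left of 0) in GFP low, for histone peaks by position, for other peaks of the chromosome 6 histone region, and for all peaks. Histone bars have no part to the left of 0, whereas all peaks over 1 kb from a gene end reach 30.5% there; the 5 histone peaks whose start was not in the promoter table are not drawn.

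The same share was examined in peaks that lie among the histone genes but belong to another gene or to none. Between the outermost clustered histone genes of chromosome 6 (chr6:25726063-27893891) there were 92 such peaks. In GFP low 22 were higher and 2 lower, with a median log2 difference of 0.21. Of the 77 over 1 kb from a gene end, 15 were higher (19.5%) and 2 lower (2.6%), with a median of 0.21. Their share of lower calls can be set beside 0 of 32 at the histone genes and 32.7% on chromosome 6, and was not tested. The higher ones with the smallest p lay inside BTN2A1 (0.40 ± 0.08, edgeR adjusted p = 0.000426), near BTN3A1 (0.48 ± 0.13, adjusted p = 0.00583) and 1 with no gene within 50 kb (0.39 ± 0.10, adjusted p = 0.00518). BTN2A1 and BTN3A1 code for butyrophilins that take part in γδ T-cell recognition. The lower ones lay inside SLC17A1, a phosphate and urate transporter gene (-0.75 ± 0.13, edgeR adjusted p = 0.000133), and BTN1A1 (-0.59 ± 0.13, adjusted p = 0.000717).

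The second comparison set GFP low against GFP high at each time, with 1 library per level and therefore no test. At 24 h the median log2 difference of the histone peaks was 0.30, and 95 of 102 were above 0. At 48 h the median was 0.043 with 61 above 0, and at 72 h 0.19 with 85 above 0. Medians of all gene-end peaks at these times were 0.25, 0.076 and 0.17, with 11344, 8758 and 10946 of 13716 above 0. A log2 difference of at least 0.32 was seen in 43, 2 and 11 histone peaks, where 22%, 14.4% and 12.4% of all peaks and 38.7%, 6.65% and 12.2% of gene-end peaks reached it. A difference as large in the other direction was seen in 1, 3 and 1 histone peaks, beside 30.7%, 26.6% and 27.5% of all peaks and 5.53%, 8.15% and 5.41% of gene-end peaks. The 95% counting interval lay above 0 in 61, 9 and 40 histone peaks and below 0 in 0, 2 and 1. Of the 13716 gene-end peaks, 7709, 3868 and 5988 had an interval above 0 and 710, 1213 and 635 below 0. For all 71318 peaks the counts were 15786, 11288 and 11737 above 0 and 19340, 17184 and 16664 below 0. These intervals compare libraries and cover counting error only.

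Among the classes, peaks over a start had medians of 0.40, 0.054 and 0.23 at 24, 48 and 72 h, and histone peaks over 1 kb from a gene end 0.30, -0.028 and 0.061. All peaks over 1 kb away had -0.099, -0.058 and -0.085. The small contrast at 48 h was thus shared by the classes. The 37.2 kb peak of H4C8 stood at 0.82 (95% counting interval 0.43 to 1.2), 0.40 (0.047 to 0.76) and 0.51 (0.13 to 0.88), the H3C1 start at 0.56, 0.025 and 0.56, and the H2BC4 start at 0.50, 0.18 and 0.30. Scaling on gene-end peaks gave histone medians of 0.047, -0.037 and 0.014, so the direction at 48 h turned.

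**Figure D5:**
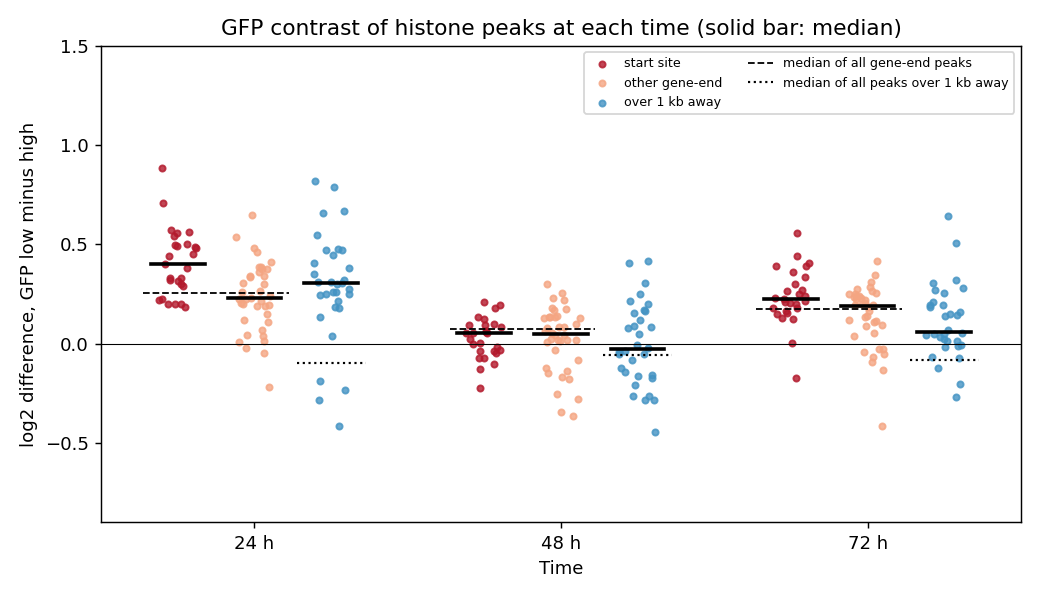
Log2 difference, GFP low minus high, of each histone peak at 24, 48 and 72 h, in 3 classes by position, with solid bars at the class medians. Dashed lines give the median of all gene-end peaks and dotted lines that of all peaks over 1 kb away. Start-site medians are 0.40, 0.054 and 0.23, and the medians of histone peaks over 1 kb away lie above the dotted line at each time, with single peaks on both sides of it.

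The third comparison asked how the histone peaks changed with time. Over both GFP levels, 0 of 102 were called higher or lower at 72 h against 24 h by edgeR, and 0 by DESeq2, where 0.882% of all peaks were higher and 1.87% lower. At an unadjusted p under 0.05, 3 were lower and 0 higher (16% of all peaks in either direction). At 48 h against 24 h, 0 of the histone peaks and 0 of all peaks were called by edgeR and by DESeq2, and 0 histone peaks had an unadjusted p under 0.05 (7.53% of all peaks).

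The peak nearest to a call lay past the end of H2AC15 (chr6:27837204-27837704), at 27.7, 29.3 and 22.1 CPM in GFP high and 36.3, 31.4 and 25.2 in GFP low. Its lowest library at each GFP level was that of 72 h, and the difference to 24 h was -0.43 (edgeR adjusted p = 0.0508), which passed under several alternatives. In the GFP contrast it did not pass (0.22 ± 0.10, edgeR adjusted p = 0.0709). The peaks with the largest fitted differences above 0 for 72 h against 24 h were 1 of H2BC13 (chr6:27807063-27807563), at 14.8, 14.6 and 17.9 against 14.6, 14.7 and 17.1 CPM, and 1 of H1-2 (chr6:26064429-26064929), at 4.47, 4.88 and 5.10 against 3.91, 4.41 and 5.06 CPM. Neither passed, and their GFP contrasts of -0.025 and -0.11 did not pass either (edgeR adjusted p = 0.868 and 0.593).

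Within GFP levels the histone peaks moved in opposite directions from 24 to 48 h, again with 1 library per point. In GFP high the median change from 24 to 48 h was 0.14, and 86 of 102 peaks were above 0. In GFP low it was -0.12, with 13 above 0. From 48 to 72 h the medians were -0.10 in GFP high (24 above 0) and 0.028 in GFP low (59 above 0), which turned to -0.038 with gene-end scaling. All gene-end peaks had medians of 0.090 and -0.079 for the first interval and -0.026 and 0.059 for the second. Of these 13716 peaks, 9467 in GFP high and 4563 in GFP low were above 0 in the first interval. In the second, 5873 and 9096 were. Between 24 and 72 h the contrast changed by a median of -0.12 in the histone peaks and -0.089 in all gene-end peaks.

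Peaks of genes that work with the clustered histones were counted for comparison. Replication-independent histone variants, whose expression is not confined to S phase, have genes elsewhere in the genome, outside these clusters. Their 28 peaks were higher in 8 cases (28.6%) and lower in 3 (10.7%), with a median log2 difference of 0.18, beside 13.4% higher, 25.4% lower and a median of 0.031 over all peaks. Of the 11 genes, 6 had only higher called peaks, 2 only lower, 1 both and 2 neither. The gene-end peaks of H2AZ2 (0.27 ± 0.05, edgeR adjusted p = 0.000205) and H2AZ1 (0.23 ± 0.05, adjusted p = 0.00131), which code for the H2A.Z variants, and of CENPA, the centromeric H3 variant (0.27 ± 0.08, adjusted p = 0.0107), were higher. Peaks inside MACROH2A1 (-1.14 ± 0.17, edgeR adjusted p = 2.23e-05) and outside H3-3A (-0.64 ± 0.14, adjusted p = 0.000836) were lower, both over 1 kb from a gene end.

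Regulators of histone gene transcription and 3′ end processing had 19 of 82 peaks higher (23.2%) and 10 lower (12.2%), with a median of 0.092. The gene-end peaks of NPAT, the coactivator of the histone locus body, of POU2F1, which codes for OCT1, and of HINFP were higher, by 0.22 ± 0.04 (edgeR adjusted p = 0.000279), 0.34 ± 0.07 (0.000307) and 0.28 ± 0.06 (0.000571). Peaks inside NPAT (-1.62 ± 0.13, edgeR adjusted p = 2.09e-08), YY1 (-1.27 ± 0.16, 2.87e-06) and POU2F1 (-0.89 ± 0.15, 7.78e-05) were lower. Of 24 genes, CASP8AP2, CPSF2 and ERI1 had no peak, 8 had only higher called peaks, 1 only lower, 4 both and 8 neither. Histone chaperones had 8 of 26 peaks higher (30.8%) and 2 lower (7.69%), with a median of 0.16. ASF1A (0.22 ± 0.06, edgeR adjusted p = 0.00387), SUPT16H of the FACT complex (0.29 ± 0.08, 0.00506) and RBBP4 (0.31 ± 0.09, 0.00625) were higher at gene ends. Peaks inside CHAF1A (-0.62 ± 0.22, edgeR adjusted p = 0.0313) and RBBP4 (-0.48 ± 0.18, 0.0335) were lower. In each list the named higher peaks lay at gene ends and the named lower ones elsewhere. The variant, regulator and chaperone lists held 11, 38 and 15 gene-end peaks, and 0 of these were lower, as at the clustered histone genes. Of all gene-end peaks 34.4% were higher and 4.24% lower, and of all peaks over 1 kb away 8.43% were higher and 30.5% lower. Over 1 kb from a gene end 0 of 32 histone peaks were lower, beside 2 of 77 other peaks of the chromosome 6 histone region. With gene-end scaling, peaks of H2BC8, H2BC12 and H2BC13 were called lower.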

How the data were processed

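Omni-ATAC-seq was measured in Raji cells of 2 GFP levels at 3 times. The authors deposited a table of raw counts, per the file headers, with 71318 peaks as rows and 18 library columns, whose values are whole reads without scaling. The submitters' processing notes name hg38 and list BWA, FastQC, R 4.2.1 and deepTools. Not given in the sources used here, and able to change the counts, are the peak caller and the treatment of duplicates, of reads matching several places and of the transposase offset. D1, D2 and D3 in the column names stand here for 24, 48 and 72 h, while no label says which replicate a V number is. Between columns of a group, the squared difference divided by its counting variance averaged 1.78 to 1.81, so the 3 columns were summed to 1 library.

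All peaks were fitted together by the robust quasi-likelihood method of edgeR 4.0.16 (R 4.3.3) with terms for time and GFP level after TMM scaling. Residual degrees of freedom were 2, with a median of 22.6 from the prior. P-values were adjusted by Benjamini and Hochberg's method and called at 0.05. Biological variation came to a coefficient of 9.48%, and the low-count filter removed 0 peaks. CPM are counts scaled to TMM library size. Differences at 1 time are of log2 CPM with a prior count of 2, and their 95% intervals multiply the counting variance by 1.80. Totals of 22908652 to 29790483 counts per library set the precision.

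Peaks took the containing or nearest of 19961 protein-coding genes (95 readthrough genes left out). RefSeq promoter windows on GRCh38.p14 gave starts, strands and sequence. Gene-end peaks lie within 1 kb of either end. The members, the lists and the naming rule were chosen with earlier results of these data known. The rule took, per family, the 3 strongest gene-end peaks and up to 2 in each direction with the smallest p, the largest and lowest differences, up to 4 called peaks over 1 kb away, up to 6 on chromosomes 1 and 12, and the largest changes with time and of the contrast. The text names the remaining called peaks as well. Alternatives used DESeq2 1.42.0, limma 3.58.1 for loess offsets, other scalings, filters, libraries left out and 18 separate columns. A single result of the comparison lists is not reported here.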

Additional observations from a re-analysis of the deposited data

Results flagged for a closer look

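Several results stood out because the GFP levels moved in opposite directions over the same interval. Each value below is a log2 difference between 1 library and 1 other, and the difference between GFP levels was not tested. From 24 to 48 h the median over the 102 histone peaks was 0.138 in GFP high and -0.116 in GFP low. Over all gene-end peaks the medians were 0.090 and -0.079, so the opposite movement was not particular to the histone peaks.

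Among single peaks over 24 to 48 h, H1-4 stood at 0.345 in GFP high and -0.183 in GFP low, the shared H2AC17 and H2BC17 peak at 0.295 and -0.308, and the shared H2AC15 and H2BC15 peak at 0.223 and -0.264. The shared H2BC4 and H2AC6 peak stood at 0.180 and -0.136, H3C1 at 0.218 and -0.319, and H3C10 at 0.225 and -0.201. The shared H2BC21 and H2AC20 peak had the widest gap of these, at 0.583 and -0.305.

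From 48 to 72 h the direction was the other way round in the H2AC17 and H2BC17 peak, at -0.286 in GFP high and 0.200 in GFP low, and in H3C1, at -0.258 and 0.274. From 24 to 72 h the H2BC21 and H2AC20 peak stood at 0.392 and -0.367, and H4C5 at 0.333 and -0.375. The cause was not tested.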

How the results depend on the processing

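In order, the counts of histone peaks higher in GFP low, of those over 1 kb from a gene end, of those over a start, of neighbouring peaks and of all peaks were 26, 4, 13, 22 and 9570. The subsets, neighbours included, and their alternatives were chosen after seeing the data. DESeq2 gave 12, 2, 7, 7 and 3721. Loess scaling gave 7 histone peaks and 1 over a start, and moved the other counts by less than 1.5 times. Scaling on gene-end peaks gave 1, 1, 0, 1 and 454. It also gave 3 histone peaks lower, 2 of them over 1 kb away, a histone median of 0.012 over times, and medians of 0.047 at 24 h and 0.014 at 72 h. Reading the V number as time gave 59, 13, 22, 48 and 18464, and a 24 h median of 0.16. With libraries or columns left out the counts ran from 5 to 36, 2 to 6, 2 to 18, 6 to 24 and 2503 to 9609. Histone peaks called lower ran from 0 to 1 and the median over times from 0.13 to 0.24. Without the 72 h pair 5 histone peaks were higher, without the 24 h pair 17 and without the 48 h pair 36. Histone peaks lower at 72 h against 24 h ran from 0 to 1 with libraries left out. The count was 1 with DESeq2 size factors, loess, gene-end or library-size scaling. The cause of these shifts was not tested. With gene-end scaling the histone median at 48 h turned from 0.043 to -0.037, and the median change in GFP low from 48 to 72 h from 0.028 to -0.038.

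The 18 columns as separate samples gave 61, 14, 23, 51 and 19287, and with the V number as a replicate block 61, 14, 23, 50 and 19080. In both, 3 histone peaks were lower at 72 h against 24 h. Deviations of columns with the same V number from their group mean correlated at r = -0.0039 to 0.016. These are small values, yet 17 of 18 columns were best matched by their own number. What columns of the same V number share was not tested, and the fit over summed libraries did not use the number.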
